A study of Mus musculus with 16 samples.

Results

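Genes of collagens and other extracellular matrix proteins were followed in aortas of ApoE-/- mice, a strain that lacks apolipoprotein E and is prone to atherosclerosis. The 40 genes, of 24445 named genes in the table, were chosen by their role as structural matrix genes of the vessel wall. They were selected on that role with their levels and their differences between the genotypes in these same libraries already known. The values in aortas and in B1b cells therefore describe the genes and support nothing on their own. All 40 had a row in the count table, and all 40 passed the filter on low counts in aorta. By role they comprised 6 fibrillar collagen chains, 5 basement membrane and network collagen chains, 5 beaded filament and fibril-associated collagen chains, 11 elastic fibre genes, 5 proteoglycans and 8 matricellular and adhesive glycoproteins.

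RNA sequencing covered 10 whole aortas, 5 labelled wt (wild type) and 5 labelled cre, and 6 libraries of peritoneal B1b cells, 3 of each label. B1b cells are innate-like B cells, here sorted from lavage fluid by surface IgM, B220 and CD5. All 4 groups carry the ApoE deficiency, and the series describes the cre mice as lacking CD40, a receptor through which T cells stimulate B cells, in B cells only. The driver of the Cre, the age, sex and diet of the mice, and any pooling of animals are not stated in the sources used here. Nor do the labels tie each library to its own animal, and the p-values therefore reflect the spread among libraries, which may be technical.

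Fibrillar collagens, mainly types I and III, form the tension-bearing fibres of the media and adventitia, with type V chains at the fibril core. Elastic fibres consist of crosslinked elastin on a scaffold of fibrillin microfibrils, and lysyl oxidases crosslink both elastin and collagen. In the artery most of this matrix is made by smooth muscle cells of the media and by fibroblasts of the adventitia. Proteoglycans such as decorin and biglycan bind collagen fibrils, versican holds hyaluronan and water, and matricellular proteins such as thrombospondins and tenascin C signal to cells without bearing load.

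The matrix genes filled a large part of the aortic libraries. They took 6.34%, 6.53%, 5.6%, 6.65% and 5.26% of all counts in the wild-type aortas and 4.76%, 4.53%, 4.29%, 3.61% and 5.55% in the cre aortas. The 2 groups overlapped in this share, since cre replicate 5 stood above wild-type replicate 5. In B1b cells the same genes took 0.00717% to 0.00936% of counts. Total counts, with 1 transcript kept per gene, ran from 1645926 (cre replicate 2) to 7300894 (cre replicate 4) in aortas, where wild-type replicate 5 held 1979777, and from 6815829 to 9911226 in B1b cells. Cd40, the targeted gene, averaged 36.8 CPM (counts per 1000000, with library sizes scaled by TMM) in wild-type and 32.8 CPM in cre B1b cells, from 34 to 39.4 and from 30 to 38.1 CPM in single libraries, with a log2 fold change of -0.16 (95% interval -0.45 to 0.13, edgeR adjusted p = 0.679). In aortas Cd40 ran from 4.76 to 12 CPM in wild type and from 1.85 to 8.51 CPM in cre. The deleted part of Cd40 is not in the labels, so these counts per whole transcript do not check the genotype.

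Markers of the wall and of B cells fitted the labelled samples. The 10 smooth muscle markers summed to 9122 to 23539 CPM in aortas and to 13.6 to 22.3 CPM in B1b cells, and the 10 B cell markers summed to 8736 to 10334 CPM in B1b cells and to 133 to 310 CPM in aortas.

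Among all 40 genes, levels per kilobase of transcript in wild-type aorta were highest for Bgn (biglycan) at 3046 CPM per kb, Dcn (decorin) at 1994, Sparc (a collagen-binding matricellular protein) at 1968 and Col3a1 (the type III collagen chain) at 1744 CPM per kb. Col1a1 and Col1a2, the chains of type I collagen, followed at 1013 and 925.6 CPM per kb, then Lum (lumican) at 776.2 and Eln (elastin) at 742.4 CPM per kb. At the low end of the 39 genes with a transcript length stood Col12a1 at 12.61, Col27a1 at 12.44 and Thbs4 at 11.28 CPM per kb. No length was matched for Mfap4.

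The genes are spread over 17 chromosomes, with some pairs side by side. Positions are from RefSeq on GRCm38, which mm10 shares. Col3a1 (chr1:45311538-45349706) and Col5a2 (chr1:45374331-45503282) lie 24625 bases apart, Dcn (chr10:97479500-97518163) and Lum (chr10:97565501-97572703) lie 47338 bases apart, and Col6a2 (chr10:76595756-76623630) and Col6a1 (chr10:76708792-76726044) lie 85162 bases apart. Col4a1 (chr8:11198423-11312889) and Col4a2 (chr8:11312805-11449287) are transcribed away from each other and overlap by 85 bases at their starts. RefSeq promoter windows, from 250 bases before to 50 after the start, were given for 27 of the 40 genes as 34 windows. The motif CCAAT, searched on both strands, was in 29.4% of these windows and in 37.4% of all 32851 windows of the table. The shares for GGGCGG were 52.9% and 35.7%, and those for TATAAA were 20.6% and 13.6%. Neighbouring matches can share end letters, and a match is a description of the sequence only.

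The windows of 6 genes are shown as a description of the sequence. They are the head-to-head pair Col4a1 and Col4a2, Col3a1 and Col1a2 as leading fibrillar chains, and Thbs4 and Col27a1, called higher in cre B1b cells. Sequences are 5′ to 3′ from RefSeq on GRCm38.p6, and capitals mark the 3 motifs on either strand. The start used for Col27a1 lies 1403 bases inside the outer start of the gene, and that for Col4a1 63 bases inside, while the other 4 windows use the outer start.

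Col4a1 promoter, chr8:11312777-11313076, minus strand: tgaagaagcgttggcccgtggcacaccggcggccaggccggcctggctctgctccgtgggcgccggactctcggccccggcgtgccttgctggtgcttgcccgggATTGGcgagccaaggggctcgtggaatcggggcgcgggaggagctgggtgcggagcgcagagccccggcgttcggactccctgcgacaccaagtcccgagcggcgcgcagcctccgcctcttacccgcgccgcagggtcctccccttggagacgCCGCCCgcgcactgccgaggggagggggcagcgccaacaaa

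Col4a2 promoter, chr8:11312555-11312854, plus strand: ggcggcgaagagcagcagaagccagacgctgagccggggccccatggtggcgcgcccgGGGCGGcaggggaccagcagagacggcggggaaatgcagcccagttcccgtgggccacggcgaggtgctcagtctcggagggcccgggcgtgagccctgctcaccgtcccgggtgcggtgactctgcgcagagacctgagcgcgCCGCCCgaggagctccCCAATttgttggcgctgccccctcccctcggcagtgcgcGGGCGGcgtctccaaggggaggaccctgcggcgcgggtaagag

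Col3a1 promoter, chr1:45311288-45311587, plus strand: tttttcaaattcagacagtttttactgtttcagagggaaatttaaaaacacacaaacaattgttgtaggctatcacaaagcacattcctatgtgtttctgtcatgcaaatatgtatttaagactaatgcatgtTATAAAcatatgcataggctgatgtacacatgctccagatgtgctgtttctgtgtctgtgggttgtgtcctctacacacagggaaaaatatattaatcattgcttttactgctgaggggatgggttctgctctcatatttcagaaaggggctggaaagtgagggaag

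Col1a2 promoter, chr6:4505368-4505667, plus strand: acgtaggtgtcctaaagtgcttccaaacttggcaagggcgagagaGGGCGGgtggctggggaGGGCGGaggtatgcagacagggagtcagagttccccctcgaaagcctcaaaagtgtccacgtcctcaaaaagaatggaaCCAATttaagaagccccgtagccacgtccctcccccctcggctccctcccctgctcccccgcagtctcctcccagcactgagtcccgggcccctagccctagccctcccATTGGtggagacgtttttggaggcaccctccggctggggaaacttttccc

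Thbs4 promoter, chr13:92794769-92795068, minus strand: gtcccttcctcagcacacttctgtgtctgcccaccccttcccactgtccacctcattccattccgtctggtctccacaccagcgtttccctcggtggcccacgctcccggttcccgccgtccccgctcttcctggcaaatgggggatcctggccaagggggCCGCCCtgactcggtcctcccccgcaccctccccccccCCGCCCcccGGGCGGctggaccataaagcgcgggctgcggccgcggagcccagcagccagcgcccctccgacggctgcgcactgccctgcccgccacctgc

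Col27a1 promoter, chr4:63215162-63215461, plus strand: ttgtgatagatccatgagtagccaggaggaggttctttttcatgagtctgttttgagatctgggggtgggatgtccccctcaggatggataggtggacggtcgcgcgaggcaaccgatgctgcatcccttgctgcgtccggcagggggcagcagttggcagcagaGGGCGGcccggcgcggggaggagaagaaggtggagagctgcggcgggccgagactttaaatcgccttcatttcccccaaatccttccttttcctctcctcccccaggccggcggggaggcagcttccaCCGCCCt

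The Col4a1 and Col4a2 windows share 78 bases (chr8:11312777-11312854) and carry no TATAAA, and their 74.0% and 73.7% of G and C bases contrast with 37.7% in the Col3a1 window, which holds a TATAAA.

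The aortic comparison asked how the matrix genes stood in cre against wild-type aortas. All 40 had a log2 fold change below 0, against 49.8% of the 13364 genes tested, and their median was -0.43 against 0.00 for all genes. None of the 40 passed at an adjusted p of 0.05 (edgeR quasi-likelihood test with Benjamini-Hochberg adjustment over all genes), where 0.015% of all genes passed, and the members' adjusted p ran from 0.156 to 0.988. At an unadjusted p under 0.05, 23 of the 40 were lower and none was higher, against 5.72% of all genes lower. DESeq2, run as an alternative, called 4 of them lower (Col5a2, Col6a3, Col12a1 and Abi3bp), where it called 0.576% of all genes lower. The 2 groups did not overlap, with every cre aorta below every wild-type aorta, for 5 genes (Col5a2, Col4a2, Col6a3, Col12a1 and Abi3bp), against 1.27% of all genes. Since this contrast was known when the genes were picked, nothing is read from these shares. Without the 2 aortas under 2000000 counts (cre replicate 2 and wild-type replicate 5), all 40 were again below 0 (51.9% of all genes), with a median of -0.39, and 19 were lower at an unadjusted p under 0.05 (7.02% of all genes). In whole tissue, fewer cells of a type and less RNA per cell cannot be told apart.

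The lowest value of a gene over the 10 aortas was in a cre aorta for 39 of the 40 genes, and in cre replicate 4 for 20 of them. The highest value was in a wild-type aorta for 35, with 13 each in wild-type replicates 2 and 4. The log2 fold change was below -0.5 for 14 genes, between -0.5 and -0.25 for another 14 and above -0.25 for 12.

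**Figure D1:**
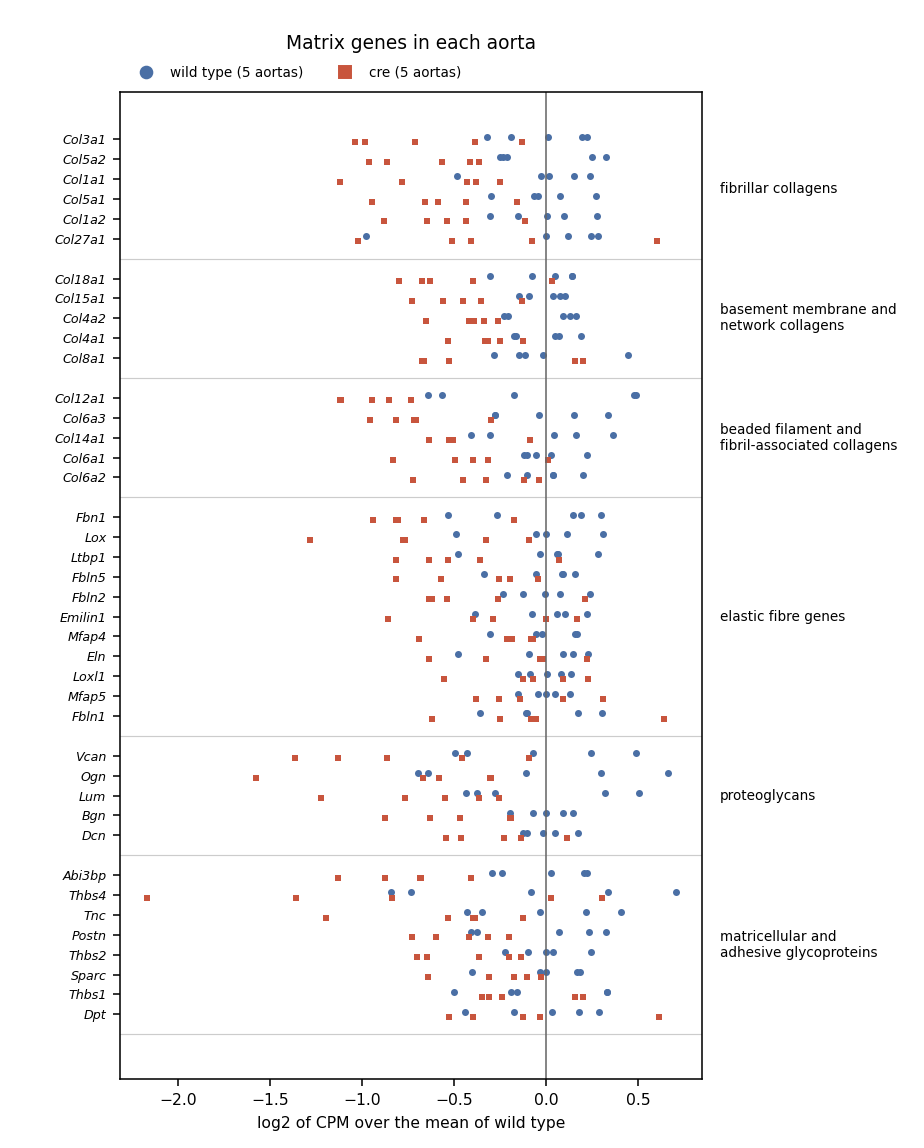
Level of each of the 40 matrix genes in each aorta, as log2 of CPM over the mean of the 5 wild-type aortas (horizontal axis), with circles for wild type, squares for cre and genes grouped by role. Squares lie mostly left of the circles in the collagens and proteoglycans, with full separation in Col5a2, Col4a2, Col6a3, Col12a1 and Abi3bp, and the 2 groups mix in Fbln1, Mfap5, Loxl1, Dpt and Thbs1.

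The median log2 fold change of the 6 fibrillar collagen genes was -0.55, and 5 of them were below an unadjusted p of 0.05. Col3a1 was counted at 9765, 11136, 7786, 11346 and 8493 CPM in the wild-type aortas and at 5915, 7423, 4720, 4901 and 8876 CPM in the cre aortas. Of the cre aortas, 4 lay below every wild-type aorta, and cre replicate 5 lay within the wild-type range. The cre mean was 65.6% of the wild-type mean (log2 fold change -0.61, SE 0.20, edgeR adjusted p = 0.263).

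Col1a1 showed a like picture. It stood at 6690, 7096, 5896, 6072 and 4292 CPM in wild type and at 4463, 4611, 3500, 2761 and 5048 CPM in cre, where wild-type replicate 5 was low enough to fall among the cre values. Its log2 fold change was -0.56 (SE 0.19, edgeR adjusted p = 0.283). Its partner in type I collagen, Col1a2, had means of 4950 ± 767 CPM (wild type) and 3500 ± 702 CPM (cre; SD, n = 5 each).

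Of the type V chains, which set the diameter of collagen fibrils, Col5a2 was at 990.6, 1363, 966, 1438 and 976.4 CPM in wild type and at 890.9, 774.4, 588.6, 630 and 861.2 CPM in cre. The groups did not overlap, although the lowest wild-type and the highest cre aorta lay close together, and the log2 fold change was -0.61 (SE 0.17, edgeR adjusted p = 0.223, DESeq2 adjusted p = 0.0428). Col5a1 was at 933.5, 1177, 793.6, 1031 and 945.7 CPM in wild type and at 650.2, 874.9, 619, 507.4 and 723.6 CPM in cre, with only cre replicate 2 inside the wild-type range. Col27a1, a fibrillar chain best known from cartilage, was the exception in the class. It stood at 115.4, 112.3, 102.9, 94.65 and 48.13 CPM in wild type and at 89.9, 143.7, 71.39, 66.48 and 46.72 CPM in cre, so that the groups overlapped over nearly their whole range (log2 fold change -0.21, 95% interval -0.83 to 0.42).

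Among the basement membrane and network collagens the median log2 fold change was -0.41, with 4 of 5 genes below an unadjusted p of 0.05. Col4a1 and Col4a2 encode the chains that join into the type IV network under endothelium and around smooth muscle cells. Col4a2 stood at 834.2, 1070, 846.4, 1043 and 1093 CPM in wild type and at 732.2, 772.5, 816.8, 622.1 and 745.3 CPM in cre, with no overlap (log2 fold change -0.41, SE 0.14, edgeR adjusted p = 0.278). Col4a1 stood at 1367, 1594, 1379, 1619 and 1759 CPM in wild type and at 1241, 1297, 1416, 1068 and 1227 CPM in cre, where cre replicate 3 lay above the 2 lowest wild-type aortas. Its log2 fold change was -0.30 (SE 0.14).

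Col15a1, a chain next to basement membranes, had the smallest p of the class. Its values were 550.7, 575.8, 484.7, 564.6 and 503 CPM in wild type and 391.9, 363.1, 490, 323.3 and 420.3 CPM in cre, with cre replicate 3 the only overlap (log2 fold change -0.43, SE 0.14, edgeR adjusted p = 0.257). Col18a1, the source of endostatin, had a log2 fold change of -0.46. Col8a1, a short-chain collagen that smooth muscle cells make in injured arteries, had one of -0.24, and 2 of its cre aortas, at 174.6 and 180.1 CPM, lay above 4 of the wild-type aortas.

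Beaded filament and fibril-associated collagens held the most negative log2 fold change of the 40 genes. Col12a1, a fibril-associated chain, was at 98.15, 202.2, 93.03, 203.6 and 128.5 CPM in wild type and at 66.75, 75.22, 67.12, 80.39 and 87.4 CPM in cre. The cre aortas were tightly grouped below a widely spread wild-type group, and the cre mean was 51.9% of the wild-type mean (log2 fold change -0.95, SE 0.22, edgeR adjusted p = 0.164, DESeq2 adjusted p = 0.0142). Col6a3 encodes the largest chain of the type VI microfilament. It stood at 727.4, 976.7, 726.1, 1114 and 857.4 CPM in wild type and at 539.9, 715.8, 536.5, 501 and 453.4 CPM in cre, with no overlap (log2 fold change -0.68, SE 0.17, edgeR adjusted p = 0.174, DESeq2 adjusted p = 0.0123).

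The other type VI chains had smaller differences. Col6a1 was at 878.8, 973.2, 917.8, 1115 and 888.1 CPM in wild type and at 677.6, 962.4, 724.1, 535.9 and 766.5 CPM in cre, where cre replicate 2 lay inside the wild-type range (log2 fold change -0.38, SE 0.16). Col6a2 was at 742, 816.6, 686.9, 916.8 and 818.3 CPM in wild type and at 581.8, 636.3, 774.3, 482.6 and 732.9 CPM in cre, with 2 cre aortas inside the wild-type range (log2 fold change -0.31, SE 0.15). Col14a1, another fibril-associated chain, had means of 730.8 ± 161 CPM (wild type) and 538 ± 85.4 CPM (cre; SD, n = 5 each).

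Ratios between chains of the same collagen type were computed within each aorta, per kilobase. They were chosen after the values were seen and carry no test. The ratio of Col4a1 to Col4a2 was 1.6, 1.45, 1.59, 1.51 and 1.57 in the wild-type aortas and 1.65, 1.64, 1.69, 1.67 and 1.61 in the cre aortas. It varied little, and every cre aorta lay above every wild-type aorta. For type VI collagen the ratio of Col6a3 to Col6a1 had means of 0.372 ± 0.0408 (wild type) and 0.309 ± 0.0501 (cre; SD, n = 5 each), with overlap, and that of Col6a1 to Col6a2 ran from 0.901 to 1.46 over the 10 aortas. The ratio of Col1a1 to Col1a2 ran from 0.867 to 1.33, with means of 1.1 ± 0.176 and 1.05 ± 0.114, and that of Col5a1 to Col5a2 from 0.565 to 0.89, with means of 0.68 ± 0.0792 and 0.718 ± 0.135. Across types, Col3a1 to Col1a1 had mean ratios of 1.75 ± 0.295 for wild type and 1.67 ± 0.231 for cre.

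Elastic fibre genes were the class closest to 0. Their median log2 fold change was -0.24, and 3 of 11 (Fbn1, Lox and Ltbp1) were below an unadjusted p of 0.05. Eln, which encodes elastin itself, stood at 3353, 3162, 2685, 3046 and 2055 CPM in wild type and at 3334, 2283, 2824, 1842 and 2801 CPM in cre. The groups covered nearly the same range, and the log2 fold change was -0.13 (95% interval -0.53 to 0.27). Fbn1, the fibrillin of the microfibril scaffold, was at 801.8, 1070, 667.6, 1188 and 1100 CPM in wild type and at 548.7, 609.8, 551.9, 503.7 and 854.8 CPM in cre. Of the cre aortas, 4 lay below all wild-type aortas and cre replicate 5 within them (log2 fold change -0.65, SE 0.19, edgeR adjusted p = 0.242).

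The crosslinking enzymes differed from each other. Lox, lysyl oxidase, was at 448, 578.1, 331.9, 504.6 and 464.9 CPM in wild type and at 436.7, 271.3, 191.4, 273.6 and 371.1 CPM in cre, with 2 cre aortas inside the wild-type range (log2 fold change -0.59, SE 0.21, edgeR adjusted p = 0.301). Loxl1, a relative needed for elastic fibre upkeep, had a log2 fold change of -0.06 with a 95% interval from -0.38 to 0.26. Fbln1, a fibulin of elastic fibres, was at -0.01 (95% interval -0.46 to 0.44) and Mfap5, a microfibril-associated glycoprotein, at -0.05 (95% interval -0.36 to 0.26). Fbln2, Fbln5, Mfap4, Emilin1 and Ltbp1, which encode 2 further fibulins, a microfibril-associated protein, an elastin-microfibril interface protein and a latent TGF-beta binding protein, ranged from -0.42 (Ltbp1) to -0.23 (Mfap4).

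The median log2 fold change of the 5 proteoglycan genes was -0.59. Bgn, the member with the highest level per kilobase, stood at 8171, 7367, 7024, 7844 and 6429 CPM in wild type and at 5326, 4760, 6427, 4013 and 6457 CPM in cre. Only cre replicate 5, just above the lowest wild-type aorta, broke the separation (log2 fold change -0.45, SE 0.16, edgeR adjusted p = 0.309). Dcn, a near relative of biglycan that also binds collagen fibrils, was at 3267, 3464, 3629, 3951 and 3219 CPM in wild type and at 3195, 2992, 2548, 2410 and 3793 CPM in cre. Only cre replicate 5 lay inside the wild-type range (log2 fold change -0.23, SE 0.15).

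Vcan, versican, was at 296.8, 380.8, 283.7, 560.7 and 473.4 CPM in wild type and at 219, 290.4, 154.9, 182 and 373.9 CPM in cre, with 2 cre aortas inside the wild-type range (log2 fold change -0.71, SE 0.25, edgeR adjusted p = 0.301). Lum and Ogn, 2 small leucine-rich proteoglycans, had log2 fold changes of -0.59 (SE 0.23) and -0.62 (SE 0.29). The span of Ogn overlaps that of the gene Cenpp, and the strand setting of the counting is not stated. Whether exons of the 2 genes overlap was not examined, so some of their reads may not be told apart.

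Matricellular and adhesive glycoproteins ranged widely. Abi3bp, a secreted protein of the matrix, had the smallest p of all 40 genes. It stood at 276.5, 395.7, 287.5, 390.9 and 345.9 CPM in wild type and at 185, 255.9, 211.3, 155.2 and 211.8 CPM in cre, with no overlap (log2 fold change -0.74, SE 0.16, edgeR adjusted p = 0.156, DESeq2 adjusted p = 0.00587). Without the 2 shallow aortas it passed the edgeR test (log2 fold change -0.83, edgeR adjusted p = 0.0465), the only member to do so, where 0.0948% of all genes were called lower.

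The collagen-binding Sparc was at 5155, 4534, 5098, 4420 and 3427 CPM in wild type and at 4211, 4019, 3647, 2902 and 4445 CPM in cre, with broad overlap (log2 fold change -0.24, SE 0.16). Postn, periostin, was at 1318, 1833, 1346, 2187 and 2051 CPM in wild type and at 1404, 1053, 1522, 1155 and 1308 CPM in cre, where 2 cre aortas exceeded the lowest wild-type ones (log2 fold change -0.44, SE 0.18, edgeR adjusted p = 0.339). Thbs2, a thrombospondin known to limit vessel growth, was at 178.5, 211, 152.7, 182.8 and 166.6 CPM in wild type and at 162.6, 109.7, 138.5, 113.9 and 155.2 CPM in cre. Its 2 highest cre aortas lay inside the wild-type range (log2 fold change -0.39, SE 0.14).

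The thrombospondins were not alike. Thbs1 had a log2 fold change of -0.09 (95% interval -0.49 to 0.31), and Thbs4, the lowest gene of the 40, was at 20.16, 58.84, 45.64, 34.06 and 21.69 CPM in wild type and at 20.2, 8.015, 44.59, 14.05 and 36.82 CPM in cre. The Thbs4 groups overlapped and the interval was wide (log2 fold change -0.53, 95% interval -1.47 to 0.42). Tnc, tenascin C, had a log2 fold change of -0.49, and Dpt, dermatopontin, one of -0.04.

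The members' differences went along with transcript length. Over all genes with a length, split into 5 equal bins of length, the median log2 fold change was 0.20 in the shortest bin (54 to 1710 bases), then 0.07, -0.00 and -0.07, and -0.16 in the longest (from 4911 bases), where 72.7% of genes were below 0. Of the 39 matrix genes with a length, 20 were in the longest bin, with a median of -0.46, and 1 was in the shortest. Across the 39 genes, log2 length and log2 fold change had a Pearson r of -0.52 and a Spearman rho of -0.44, against -0.24 and -0.36 across 13116 genes, as a description over genes measured in the same 10 libraries. The mean log2 CPM of the longest bin minus that of the shortest was 0.85, 1.18, 0.67, 1.08 and 1.27 in the wild-type aortas and 0.60, 0.71, 0.65, 0.85 and 0.67 in the cre aortas.

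A fit with an offset for transcript length in each library brought the 5 medians of all genes to between -0.02 and 0.01. In that fit the matrix genes had a median of -0.33, with 37 of 39 below 0 (Fbln1 at 0.03 and Thbs1 at 0.04 were above), against 50.7% of all genes. At an unadjusted p under 0.05, 14 were lower, against 4.62% of all genes in the same fit. None passed after adjustment, and Abi3bp again had the smallest adjusted p, 0.293, with a log2 fold change of -0.69. The 7 shortest members had more negative values than without the offset: Mfap5 -0.19, Dpt -0.14, Dcn -0.33, Sparc -0.28, Bgn -0.49, Lum -0.64 and Ogn -0.66. The 4 longest moved towards 0: Col12a1 to -0.72, Col6a3 to -0.48, Fbn1 to -0.44 and Vcan to -0.46. The part of transcript length in the aortic differences was not tested.

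**Figure D2:**
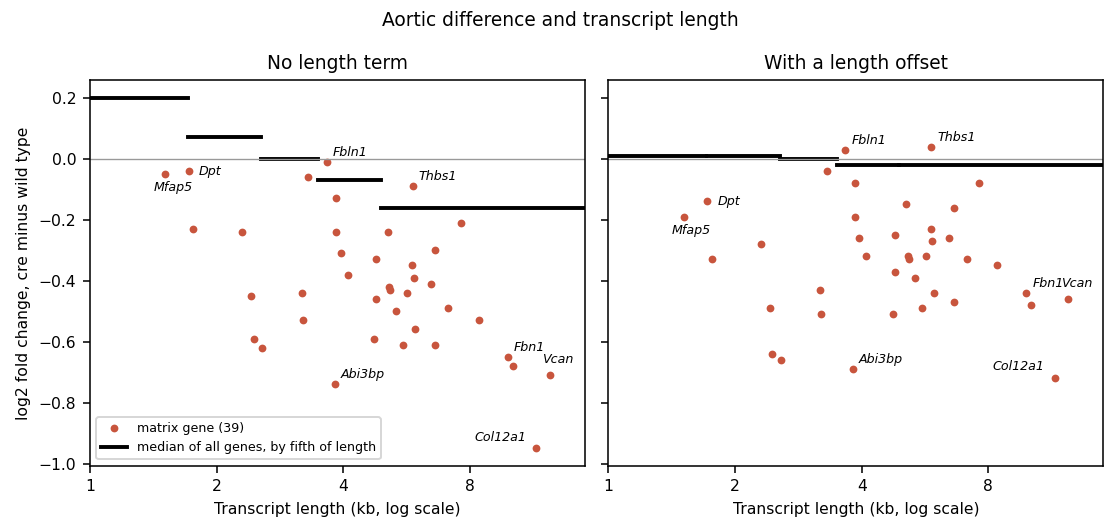
Log2 fold change, cre minus wild type, in aorta (vertical axis) against transcript length in kb (log axis) for the 39 matrix genes with a length, without a length term (left) and with a length offset (right). Black bars give the median of all genes in each of 5 bins of length, which runs from 0.20 to -0.16 on the left and from 0.01 to -0.02 on the right, and most matrix genes lie below the bars in both.

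Markers of the cells that make the matrix and of tissue around the vessel were read beside these values. The 10 smooth muscle markers had a median log2 fold change of -0.13, with none passing, and a mean log2(CPM + 1) of 8.88 to 9.50 in wild type and 8.64 to 9.70 in cre. The 12 adventitial fibroblast markers had a median of 0.13, with ranges of 7.99 to 8.31 and 7.97 to 8.68. The 10 endothelial markers had a median of 0.12 and the 10 macrophage markers of 0.06. Their defining genes were measured in every aorta.

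Markers of other tissues differed more. All 10 heart muscle markers had a log2 fold change above 0 (median 1.19), summing to 764 to 3573 CPM in wild type and 890 to 7591 CPM in cre, and all 9 tested adipocyte markers were above 0 (median 0.75, 1132 to 5982 and 2097 to 7012 CPM). Mesothelial markers, all 10 above 0 with a median of 1.0, summed to 46.8 to 92 CPM in wild type and to 99.4 to 212 CPM in cre, groups that did not overlap. The 7 tested skeletal muscle markers (median 2.88; 22 to 186 and 85.7 to 985 CPM) and 8 of 9 tested nerve markers (median 0.80; 317 to 481 and 369 to 968 CPM) were above 0. Chondrocyte markers went the other way, 7 of 7 tested below 0 with a median of -0.63 (425 to 934 and 253 to 536 CPM), and 7 of the 10 listed also stand in the other matrix lists described further on. Between 0 and 6 skeletal muscle markers were at 0 in a wild-type aorta and at most 1 in a cre aorta, and at most 2 chondrocyte markers were at 0. The part of these tissues in the matrix values was not tested.

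**Figure D3:**
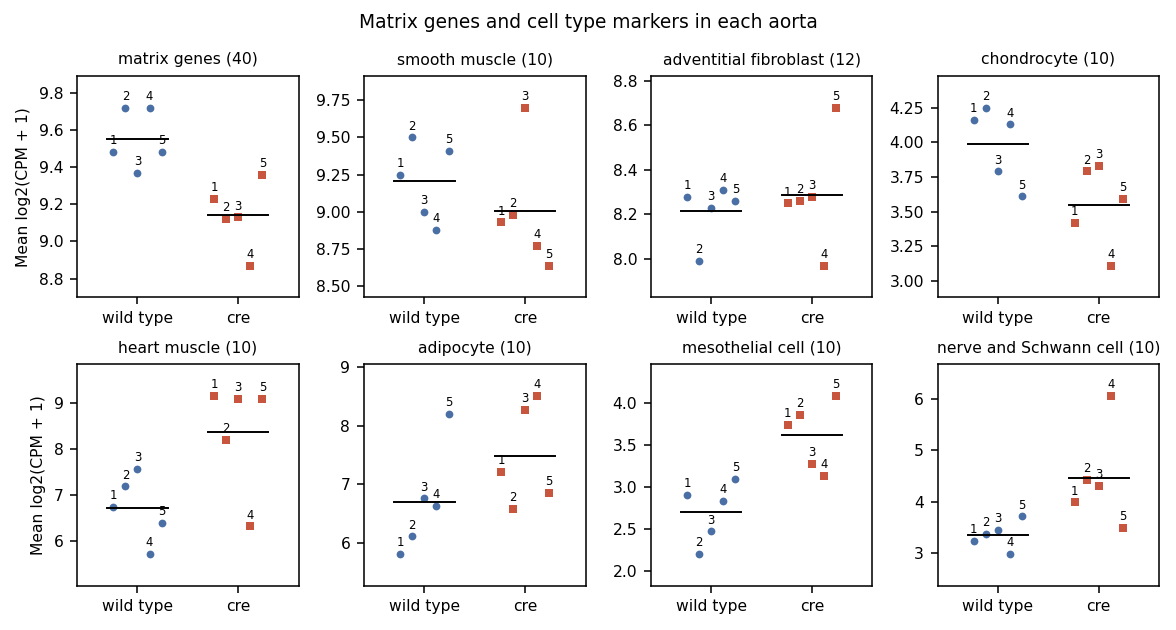
Mean log2(CPM + 1) of the 40 matrix genes and of 7 marker lists in each aorta (vertical axes, each panel with its own range), with wild type as circles, cre as squares, replicate numbers beside the points and a line at the group mean. All cre aortas are below all wild-type aortas for the matrix genes (highest cre 9.36, lowest wild type 9.37) and above them for mesothelial markers, while smooth muscle and adventitial fibroblast markers overlap.

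Summarised per aorta, the mean log2(CPM + 1) of the 40 genes was 9.48, 9.72, 9.37, 9.72 and 9.48 for wild type, against 9.23, 9.12, 9.13, 8.87 and 9.36 for cre. The 2 groups nearly met at wild-type replicate 3 and cre replicate 5.

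Other genes of the matrix and its pathways were read from 8 lists of 204 genes, of which 180 were tested in aorta and none passed. Of the 180, 139 had a log2 fold change below 0, against 49.8% of all genes, and the median was -0.22. At an unadjusted p under 0.05, 42 were lower (5.72% of all genes) and 2 higher (918 of all 13364 genes). For 9 the groups did not overlap, with cre lower (1.27% of all genes). These lists were also chosen with earlier results known, so nothing is read from these shares. All values of the lists are from the fit without a length term. The other collagen chains came closest to the 40 genes, with a median of -0.41 over 20 tested and 6 lower at that p. Col4a6 and Col4a5, type IV chains that pair in smooth muscle basement membrane and lie outside the 40, were at -0.69 (253 ± 29 against 156 ± 34.6 CPM) and -0.67 (309 ± 65.5 against 194 ± 25.4 CPM; SD, n = 5 each). Laminins and basement membrane genes had a median of -0.33 over 15 tested with 7 lower, among them Lama5, a laminin chain, at -0.51 and Agrn, agrin, at -0.44, whose groups did not overlap. Above 0 were 3 of the other collagen chains, up to 1.15, and 3 of the laminin list, up to 0.82, of which 1 was higher at that p.

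Enzymes that fold, modify and crosslink collagen had values nearer 0. The 30 tested had a median of -0.10, and 2 were lower at that p: Loxl3, a lysyl oxidase relative, at -0.55 and Plod2, a collagen lysyl hydroxylase, at -0.54. Other elastic fibre genes had a median of -0.01 over 16 tested, with 1 lower, Ltbp2 at -0.72. Other proteoglycans had a median of -0.30 over 19 tested with 6 lower, led by Prg4, lubricin, at -1.25 with a wide spread (1578 ± 803 against 664 ± 290 CPM). Of these 19, 7 were above 0, up to 1.77, and 1 was higher at that p. Among 32 other glycoproteins (median -0.23, 8 lower), Fn1, fibronectin, was at -0.80, with 3575, 8119, 3677, 8173 and 6588 CPM in wild type and 3434, 3022, 4027, 2889 and 3926 CPM in cre. Of the wild-type aortas, 2 were near the cre values of Fn1 and 3 well above them.

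Receptors for matrix had a median of -0.26 over 28 tested with 9 lower, among them Itgav, the alpha V integrin chain, at -0.57 (166 ± 25.1 against 112 ± 10.4 CPM, groups not overlapping) and Itga11, a collagen-binding integrin chain, at -0.58. The 20 genes of the TGF-beta pathway, a main inducer of matrix genes, had a median of -0.15, with 3 lower: Tgfbr1, its type I receptor, at -0.59, Skil, a feedback repressor, at -0.56, and Smurf2, a ubiquitin ligase of the pathway, at -0.39.

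In B1b cells most of the 40 genes were barely detected. Their mean level was under 1% of the aortic level for 38 genes and under 0.2% for 27, down to 0.0447% for Mfap5, and 22 genes averaged under 1 CPM. For 8 genes at least 1 of the 6 B1b libraries held 0 counts, which allows up to 0.303 to 0.44 CPM by library (3 counts). With both genotypes pooled, the exceptions were Col27a1, whose B1b level was 29.7% of the aortic one, and Thbs4 at 4.95%, with Thbs1 next at 0.832%. The Thbs4 value came from the cre libraries. Thbs4 averaged 0.115 CPM in wild-type B1b cells against 36.08 CPM in wild-type aortas, and 2.89 against 24.73 CPM in cre. Across the 40 genes, the log2(CPM + 1) levels in the 2 tissues had a Pearson r of 0.30 and a Spearman rho of 0.50, as a description.

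The B1b comparison asked whether these genes differed between the genotypes in the B cell subset that the series is about. Of the 40 genes, 16 passed the filter on low counts, and 2 of these were called, both higher in cre, where 0.707% of the 11732 genes tested were called. The median log2 fold change of the 16 was 0.01. The groups did not overlap for 3 higher genes (Col27a1, Thbs4 and Bgn) and 1 lower gene (Fbn1) of the 16, where they did not overlap for 18.4% of all genes tested. The genes were chosen with earlier results of these data known, so nothing is read from these shares either.

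Thbs4, thrombospondin 4 (chr13:92751586-92794818), had 0, 1 and 2 counts in the wild-type and 22, 23 and 26 counts in the cre B1b libraries. The 3 cre libraries agreed closely and stood far above the wild-type ones, at 2.89 ± 0.415 against 0.115 ± 0.109 CPM (SD, n = 3 each). The ratio of summed counts scaled by library size was 23.1, with a counting interval from 7.6 to 115 that covers counting error only, and Thbs4 rose by a fitted log2 fold change of 4.40 (SE 0.81, 95% interval 2.71 to 6.09, edgeR adjusted p = 0.0108). The call rests on 71 counts in cre and 3 in wild type. Thbs4 passed the filter on low counts only through the cre libraries, where it is high, so the test is not independent of that difference. It was lost without cre replicate 1, cre replicate 2 or wild-type replicate 2 (edgeR adjusted p from 0.0581 to 0.0667, log2 fold change 4.29 to 4.46), and DESeq2 gave no adjusted p for this gene.

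Col27a1 (chr4:63214009-63334991) had 98, 141 and 232 counts in the wild-type and 311, 228 and 307 counts in the cre B1b libraries. These are 13.2, 18.1 and 25.3 CPM for wild type against 37.9, 33.4 and 31 CPM for cre. The groups did not overlap, and Col27a1 rose by 0.84 on the log2 scale (SE 0.19, 95% interval 0.44 to 1.24, edgeR adjusted p = 0.0468). The call lies just under the threshold and was lost in 4 of 6 leave-one-out fits (without cre replicate 1 or 2 or wild-type replicate 1 or 2), with adjusted p from 0.114 to 0.174, and with a length offset (adjusted p = 0.0557). The spans of the noncoding gene Gm52743 and the microRNA gene Mir455 overlap that of Col27a1. Overlap of exons was not examined and the use of strand is not given, so some of their reads may be counted with Col27a1. No annotated gene overlaps Thbs4.

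Markers of other peritoneal cells were read beside these 2 genes. The 10 macrophage markers summed to 128 to 247 CPM in wild-type and to 311 to 366 CPM in cre B1b libraries, without overlap. Of the 8 tested, 1 was called, higher in cre, and the median log2 fold change was 0.89. At an unadjusted p under 0.05 (edgeR), 5 of the 8 were higher, against 895 of all 11732 genes. The 10 mesothelial markers summed to 20.8, 31.6 and 17.6 CPM against 24.5, 24.2 and 49.8 CPM, with overlap, and none of the 3 tested was called (edgeR; 1 had an unadjusted p under 0.05). At most 1 macrophage marker and 3 to 6 mesothelial markers were at 0 in a library. Their part in the Thbs4 and Col27a1 values was not tested.

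The other genes of the 16 did not pass. Bgn was at 2.97, 3.08 and 2.18 CPM in wild type and at 3.17, 5.57 and 4.04 CPM in cre (log2 fold change 0.63, 95% interval -0.26 to 1.52), and Fbn1 at 3.11, 2.31 and 2.83 against 2.2, 1.76 and 1.82 CPM (log2 fold change -0.51, 95% interval -1.53 to 0.51). The leading fibrillar chains had log2 fold changes near 0, Col1a1 0.17 (95% interval -0.62 to 0.96), Col3a1 0.06 (-0.65 to 0.77) and Col1a2 -0.05 (-1.01 to 0.91). The 24 genes that failed the filter were not tested. Their summed counts in wild type and cre were 18 and 3 for Lox, 26 and 8 for Abi3bp and 10 and 2 for Tnc. Vcan (27 and 11), Ogn (18 and 6) and Postn (30 and 14) were also lower in cre. Counting intervals of these ratios, which cover counting error only, lay below 1. Others were higher in cre, such as Col6a2 (13 and 23) and Col6a1 (12 and 21), with intervals that held 1.

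**Figure D4:**
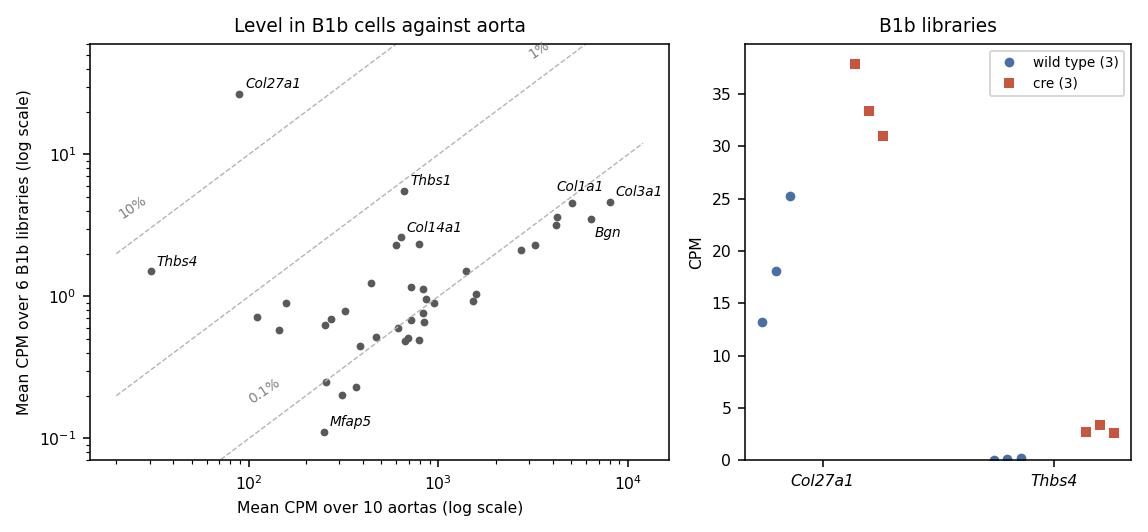
Left, mean CPM of each of the 40 matrix genes over the 6 B1b libraries (vertical, log axis) against the mean over the 10 aortas (horizontal, log axis), with dashed lines at 10%, 1% and 0.1% of the aortic level. Col27a1 lies above the 10% line and Thbs4 between 1% and 10%, and the right panel shows their CPM in each B1b library, cre above wild type in both genes.

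Whether the cre difference itself differed between the tissues was tested as an interaction over all 16 libraries. None of the 40 genes passed (edgeR), where 0.0199% of the 15091 genes tested passed, and 4 of the 40 (Thbs4, Bgn, Col27a1 and Col6a1) had an unadjusted p under 0.05, against 11.1% of all genes. The 24 genes that failed the filter in B1b cells entered this fit through the aortas, where they are high. Their B1b side rests on few counts, 12 in wild type and 21 in cre for Col6a1, so the test cannot settle a tissue difference for them. The interaction value of Thbs4, aorta minus B1b, was -4.85 (SE 1.02, edgeR adjusted p = 0.14), and it passed with DESeq2 (adjusted p = 0.00203), which called 0.696% of all genes in that direction. Bgn was at -1.07 (SE 0.30, edgeR adjusted p = 0.219) and Col27a1 at -1.06 (SE 0.44, edgeR adjusted p = 0.381).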

How the data were processed

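RNA sequencing libraries of 10 aortas and 6 samples of sorted B1b cells were analysed. Per the labels' protocols, RNA was extracted in TRIzol, cleaned on Direct-zol columns and turned into libraries by a KAPA mRNA Hyperprep protocol. The submitters' processing notes list CASAVA 1.8.2, STAR 2.5.2b and the build mm10. The counting method with its annotation release and strand setting is not given in the sources used here. In 1 table with 35745 rows the authors deposited raw read counts per RefSeq transcript and did not normalize them.

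Of these rows, 35435 took a gene name from the RefSeq table of GRCm38 and 193 from GENCODE, while 117 took none. The row of highest total was kept for each gene, leaving 24562 entries. Unnamed rows, 0.24% to 2.5% of a library's counts, stayed in as entries of their own. Genotype labels set the groups, and replicates were numbered in the order of the samples.

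Each tissue was fitted alone with edgeR 4.0.16 in R 4.3.3 (TMM, a low-count filter by filterByExpr on genotype, the robust quasi-likelihood F test, Benjamini-Hochberg adjustment over all genes, threshold 0.05), and the tissue difference as an interaction over all 16 libraries. CPM used the scaled library sizes, and intervals are 95%. DESeq2 1.42.0, limma 3.58.1 with voom, upper-quartile scaling, no filter, the row of lowest total, a length offset, and fits without single libraries or without those under 2000000 counts served as alternatives. The main edgeR fit of each tissue was also run on simulated counts with known changes. Those counts held no trend with transcript length and no admixed tissue, so they do not check the aortic fit for either.

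The members, the other matrix lists and the markers were chosen with earlier results of these data known. In each class, every library is given for the 2 members of highest level, the 2 of smallest p, those called and those whose aortic groups did not overlap. From each other list up to 3 genes of smallest p with at least 5 CPM were eligible to be named. Chain ratios, neighbouring genes and promoter motifs were chosen after values were seen. Protein sequences were not used here.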

Additional observations from a re-analysis of the deposited data

Results flagged for a closer look

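Over 80 groups of 5 aortas (40 genes in 2 genotypes), chance alone would flag about 1 group in 20 for a sample that lies far from the rest by its gap over the group's range, and 2 were found. Col14a1, a fibril-associated collagen, stood at 687.3 CPM in cre replicate 5, while the other cre aortas ran from 469.8 to 515.3 CPM. Mfap4, a microfibril-associated protein, stood at 409.8 CPM in cre replicate 4, while the other cre aortas ran from 571.7 to 630.2 CPM.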

How the results depend on the processing

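No member passed in aorta with edgeR under upper-quartile scaling, no filter, the row of lowest total or a length offset, with limma-voom with or without quality weights, or in any fit that left out 1 aorta (0 to 0 members). DESeq2 called 4 members lower, and edgeR without the libraries under 2000000 counts called 1. The aortic median of the members, -0.43, ran from -0.46 to -0.35 without single aortas and from -0.44 to -0.33 in the other fits. In B1b cells, 2 members were called higher with edgeR, 1 with DESeq2, 1 with a length offset and 0 to 2 without single libraries. The B1b median of 0.01 became 0.14 with quality weights, -0.12 with no filter (40 members tested), 0.11 with the row of lowest total and -0.14 to 0.17 without single libraries. Of the interaction, DESeq2 called 1 member lower (Thbs4) where edgeR called 0. Signs turned for 5 aortic members near 0. With a length offset Fbln1 was at 0.03 and Thbs1 at 0.04. Without single aortas Fbln1 ran from -0.24 to 0.11, Dpt from -0.26 to 0.07, Mfap5 from -0.16 to 0.03, Loxl1 from -0.15 to 0.04 and Thbs1 from -0.19 to 0.01. Over all genes the aortic calls were 2 with edgeR, 204 with DESeq2, 92 without the 2 shallow libraries, 9 with quality weights and 14 without cre replicate 4. In B1b cells they were 83, with 196 in DESeq2, 327 with no filter and 35 to 103 without single libraries. The cause of these changes was not tested. No paired analysis was possible because the labels give no replicate numbers that tie wild-type to cre samples. Few counts stand behind the B1b values, where 22 members averaged under 1 CPM and 24 did not pass the filter.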
